A study of Homo sapiens with 4 samples.

Results

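The genes described here are targets of p53, the tumour suppressor transcription factor, together with a few proteins that feed back on it, chosen by symbol from a list of 31. Of those 31 symbols, 30 had a row among the 30863 genes of the table, and 29 of the 30 had a mean of at least 1 normalized count and were tested. TIGAR had no row under that name, and its older symbol C12orf5 is given apart from the counts. The series is poly(A)-selected RNA sequencing, without strand, of wild-type HepG2, which is an established line of human liver tumour cells and is labelled hepatoblastoma. DMSO, the solvent, was given to 2 libraries and AMF, which the title names as amentoflavone, a plant biflavonoid, to 2 libraries, for 48 h. The labels conflict on the agent, with 90 µM AMF in the treatment protocol and 80 µM Tub B in the design text. Compound and dose are therefore uncertain, and AMF here means the libraries with AMF in their names. All libraries come from 1 cell line, and separate cultures are not stated for replicates 1 and 2, so p-values capture only the spread among these libraries, which may be technical.

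The p53 protein is a transcription factor that is held at a low level in resting cells by the ubiquitin ligase MDM2 and its partner MDM4, and that accumulates after DNA damage and other stresses. It then binds response elements made of a pair of decamer half-sites and raises genes that halt the cell cycle, repair DNA, limit oxidative damage or start cell death, together with MDM2 itself, which closes a negative feedback loop.

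Total reads per library ranged from 24226586 to 26966210. The mitochondrial share of reads was 7.73% and 7.69% in DMSO and 9.53% and 9.61% in AMF, and 23929 and 24108 genes had reads in DMSO against 25985 and 25632 in AMF. Both moved with the group, and their part in the results was not tested. In what follows, values are normalized counts, that is reads divided by a size factor per library, so that 1 read equals 0.929 to 1.03. Errors are SD with n = 2 per group. Each change is the AMF minus DMSO difference in log2(normalized count + 1) estimated by limma-trend, called at an adjusted p of 0.05 over all 23828 genes tested. All 9 hepatocyte and liver tumour markers examined, albumin among them, were present, with a summed level of 497778 to 515529 in DMSO and 368072 to 387846 in AMF. Of the 9, HNF4A rose (7044 and 7053 in DMSO, 13071 and 12569 in AMF), 6 fell, and albumin and FGB did not pass the test. Of 10 markers of blood, endothelial, fibroblast and basal epithelial cells, 8 had a row, with a summed level of 1037 to 1062 in DMSO and 1511 to 1512 in AMF, and the T cell marker CD3E was at 0 in both DMSO libraries. ACTA2, smooth muscle actin, made up most of that sum (759.7 and 775 in DMSO, 1173 and 1200.1 in AMF). Members of that list moved in opposite directions. The endothelial marker PECAM1 rose (145 and 185 in DMSO and 289 and 277 in AMF), the monocyte marker CD14 was low (5.00 and 12.3 in DMSO and 31.6 and 19.6 in AMF), and the fibroblast collagen COL1A1 fell (116 and 86.2 in DMSO and 5.57 and 8.24 in AMF). Exons of 13 of the 29 tested genes, CDKN1A, MDM2 and DRAM1 among them, overlap those of another gene in GENCODE release 29, and without strand a neighbour's reads may be counted with theirs. In bulk RNA, fewer cells of a type and less RNA per cell cannot be told apart, and what part the cell type markers had in the results was not tested.

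Short stretches of 4 promoters show where a p53 decamer occurs close to a start site of these genes. Promoter windows of RefSeq (build GRCh38.p14, 250 bases before to 50 after a start) were on hand for 29 of the 31 symbols, in 42 windows. A search for the p53 consensus half-site, whose letters read the same on both strands, found it in 4 of the 29 (13.8%), against 8.06% of 27305 genes in the promoter table. DDB2 alone of the 29 held a full site, a pair of half-sites with a spacer of 0 to 13 bases, which 10 of 27305 genes (0.0366%) hold in such a window. The DDB2 site lies at bases 6 to 26 after its second annotated start, the PLK2 half-site 132 bases, the AEN half-site 34 bases and the FDXR half-site 11 bases before the start. Capitals mark the half-sites, and each sequence is written 5′ to 3′ on the strand of the gene.
DDB2, chr11:47214975-47215003, plus strand: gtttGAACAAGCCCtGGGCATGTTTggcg
PLK2, chr5:58460199-58460228, minus strand: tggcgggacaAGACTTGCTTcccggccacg
AEN, chr15:88621296-88621325, plus strand: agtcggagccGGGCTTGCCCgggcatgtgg
FDXR, chr17:74872986-74873015, minus strand: gggcaggagcGGGCTTGCCCtgcggagcag
As given below, PLK2 and FDXR rose in AMF, DDB2 fell and AEN did not pass the test, so the 4 genes with a decamer in the window did not share a direction. A match describes the letters and is not evidence of binding, and response elements farther from the start were not searched. Only exact matches to the consensus were counted, so a window without a match may still hold an element that differs from it.

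The response was mixed, with CDKN1A, the p21 inhibitor of cyclin-dependent kinases, at one end and DRAM1, a lysosomal membrane protein that p53 induces, at the other. In AMF 12 of the 29 tested genes rose, 7 fell and 10 did not pass, whereas over all genes tested 15.6% rose and 16.2% fell. All 29 had a mean of at least 100 normalized counts (range 117 to 8170.4). Among the 11137 genes above that level 25.7% rose and 33.6% fell, in a separate fit of those genes with its own adjustment. Read against that level, the share past the test in either direction, 65.5%, was close to the 59.3% of genes at least as abundant (31.8% of all genes tested). The median change was 0.18, beside 0.035 over all genes tested and -0.040 over those with a mean of at least 100. A change of at least 1 on the log2 scale was reached by 2 of the 29, and by 18.6% of all genes tested. The median size of the change was 0.34 in the 29 and 0.38 over all genes tested. Over genes with a mean of at least 100 it was 0.24. The groups did not overlap in 22 of the 29, as in 63.4% of all genes tested (33.8% higher and 29.7% lower in AMF). The list was chosen with results of these data known, so these shares describe it and do not set it apart from other genes.

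**Figure D1:**
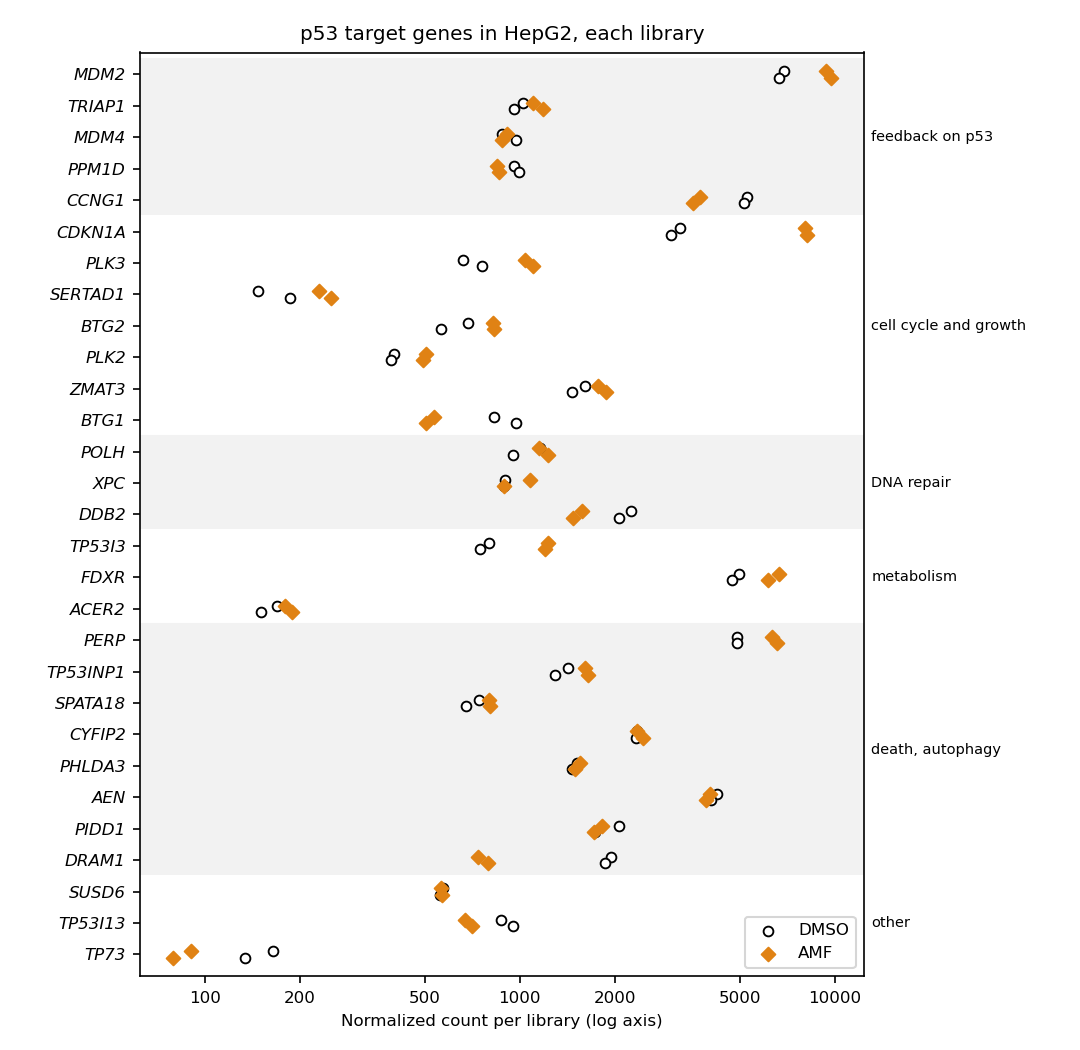
Normalized counts (log axis) of the 29 tested p53 target genes in each of the 4 libraries, open circles for DMSO and filled diamonds for AMF, grouped by role. CDKN1A (3033 to 3221 in DMSO, 8059.9 to 8201 in AMF) and DRAM1 (1863 to 1954 in DMSO, 739 to 793 in AMF) show the widest separation of the groups.

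Among the regulators that feed back on p53, MDM2 rose while CCNG1 fell. Transcripts of MDM2, the ubiquitin ligase that marks p53 for degradation, counted 6904 and 6662 in DMSO and 9364 and 9751 in AMF. Both AMF libraries were higher than both DMSO libraries, and the change was 0.49, SE 0.0423, adjusted p = 5.24e-07, a 1.41-fold rise. MDM4, the MDM2 partner that masks the activation domain of p53, stood at 879 and 974 in DMSO and 910.0 and 876 in AMF. Its AMF values lay inside the DMSO range apart from the lowest, which was just below it, and the change of -0.052 (95% interval -0.21 to 0.11, adjusted p = 0.650) did not pass. CCNG1, or cyclin G1, which recruits a phosphatase to MDM2, had 5257 and 5164 in DMSO and 3735 and 3546 in AMF. The groups were well apart, with a change of -0.52, SE 0.0468, adjusted p = 9.01e-07. Small changes near the threshold were those of PPM1D, or WIP1, the phosphatase that reverses damage signalling to p53 (956 and 992 in DMSO and 849.6 and 862 in AMF; -0.19, SE 0.0676, adjusted p = 0.0498), and of TRIAP1, a small survival protein (1026 and 959.9 in DMSO and 1101 and 1186 in AMF; 0.20, SE 0.0690, adjusted p = 0.0360). The call of PPM1D ended with a pseudocount of 0.1, without the filter and with library totals as scaling, and that of TRIAP1 under the first 2 of these settings (adjusted p up to 0.0857 and 0.0667). MDM2 and CCNG1 stayed called by voom, a second limma method run on the reads, whichever library was left out (adjusted p up to 0.0441 and 0.0428), whereas TRIAP1 was called without DMSO replicate 1 alone and PPM1D in none of these fits.

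Of 7 genes that act on the cell cycle or growth, 6 rose and 1 fell, beside 25.7% and 33.6% of all genes with a mean of at least 100. CDKN1A had 3221 and 3033 in DMSO and 8059.9 and 8201 in AMF, and its rise of 1.38, SE 0.0463, adjusted p = 4.39e-11, or 2.60-fold, was the largest of the 29 and exceeded the change of 92.0% of all genes tested. Replicates were close and the groups far apart. PLK3, a stress-responsive polo-like kinase, counted 661 and 759 in DMSO and 1039 and 1102 in AMF (0.60, SE 0.0792, adjusted p = 3.83e-05). Its relative PLK2, which acts at the centrosome, counted 398 and 391 in DMSO and 505 and 493 in AMF (0.34, SE 0.0870, adjusted p = 0.00749). For both kinases every AMF value was above every DMSO value. SERTAD1, a cyclin D and CDK4 binding protein, was at 147 and 187 in DMSO and 230.3 and 251 in AMF (0.54, SE 0.141, adjusted p = 0.00876), with the widest gap between the DMSO replicates among the 29. ZMAT3, an RNA-binding zinc finger protein, was at 1617 and 1463 in DMSO and 1774 and 1880.0 in AMF (0.25, SE 0.0639, adjusted p = 0.00778).

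The antiproliferative relatives BTG1 and BTG2, which bind the deadenylase that shortens poly(A) tails, changed in opposite directions. BTG2 rose, with 685 and 563 in DMSO and 824 and 829 in AMF (0.41, SE 0.0901, adjusted p = 0.00249). BTG1 fell, with 829.7 and 976 in DMSO and 535 and 504 in AMF (-0.79, SE 0.0875, adjusted p = 6.49e-06). The 95% interval of the change was 0.22 to 0.61 for BTG2 and -0.98 to -0.61 for BTG1, while the difference between the 2 changes was not tested. Voom called the changes of BTG1, BTG2, PLK2, PLK3 and ZMAT3 without either DMSO library and not without AMF replicate 1 (adjusted p from 0.0728 for PLK3 to 0.191 for BTG2) or AMF replicate 2, and that of SERTAD1 without DMSO replicate 2 alone. The log2 change of BTG2 was 0.27 without DMSO replicate 2 and 0.55 without DMSO replicate 1.

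The 250 bases before the start of CDKN1A and DRAM1, the largest rise and fall, and of BTG2 and BTG1 are printed because these genes moved in opposite directions. Capitals mark the TATA element TATAAA, the GC box GGGCGG and the CCAAT box on either strand (overlapping GC boxes run together).
CDKN1A, chr6:36678464-36678713, plus strand: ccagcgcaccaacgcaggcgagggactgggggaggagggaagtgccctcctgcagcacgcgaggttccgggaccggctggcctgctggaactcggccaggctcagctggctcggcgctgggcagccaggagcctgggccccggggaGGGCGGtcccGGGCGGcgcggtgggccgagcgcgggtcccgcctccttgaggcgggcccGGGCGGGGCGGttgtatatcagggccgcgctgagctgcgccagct
DRAM1, chr12:101877330-101877579, plus strand: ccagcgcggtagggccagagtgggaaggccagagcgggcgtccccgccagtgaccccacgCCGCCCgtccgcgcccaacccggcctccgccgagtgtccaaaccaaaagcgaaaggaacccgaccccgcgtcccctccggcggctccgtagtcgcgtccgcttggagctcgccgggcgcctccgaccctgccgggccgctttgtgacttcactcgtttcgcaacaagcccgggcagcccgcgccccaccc
BTG2, chr1:203305269-203305518, plus strand: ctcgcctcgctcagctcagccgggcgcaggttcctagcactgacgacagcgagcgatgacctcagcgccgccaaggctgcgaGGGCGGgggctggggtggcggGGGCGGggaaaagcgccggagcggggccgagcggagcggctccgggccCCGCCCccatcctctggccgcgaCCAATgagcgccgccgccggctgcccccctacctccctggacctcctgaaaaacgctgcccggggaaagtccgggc
BTG1, chr12:92145847-92146096, minus strand: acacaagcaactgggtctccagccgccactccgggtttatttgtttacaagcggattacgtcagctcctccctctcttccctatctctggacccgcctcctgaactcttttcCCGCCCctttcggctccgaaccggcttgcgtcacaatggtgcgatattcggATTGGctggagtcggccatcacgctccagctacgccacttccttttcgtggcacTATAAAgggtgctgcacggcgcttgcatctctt
CDKN1A held 4 GC boxes in this stretch, BTG2 held 3, DRAM1 and BTG1 held 1 each, and BTG1 also had a TATAAA 33 bases before its start. Over the full 300-base windows, GGGCGG occurred in 27 of the 29 genes with a window (93.1%, against 48.3% of all genes in the promoter table). TATAAA occurred in 1 (3.45%, against 14.0%) and CCAAT in 14 (48.3%, against 39.7%). The promoter table was not limited to expressed genes, and no share was computed for genes as abundant as these. GGGCGG was present in 10 of the 11 genes that rose, 7 of the 7 that fell and 8 of the 9 that did not pass. Per window its share was 81.2% for genes that rose and 83.3% for genes that fell, so its presence did not separate the directions. CCAAT was present in 6 of the 7 genes that fell, in 5 of the 11 that rose and have a window, and in 1 of the 9 that did not pass and have one. Genes that fell had more windows each (12 for 7 genes, against 16 for 11 that rose). Per window the CCAAT shares were 58.3% for genes that fell, 50% for genes that rose and 10% for genes that did not pass. Windows of MDM2 and of CCNG1 overlap each other, so the same letters were counted more than once. These shares describe letters in a window and were not tested.

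None of the 3 DNA repair genes rose past the test and 1 fell, beside 25.7% and 33.6% of all genes with a mean of at least 100. So few genes say little about repair genes as a group. DDB2, the subunit of the ultraviolet damage sensor that starts nucleotide excision repair and whose window holds the full p53 site printed above, fell, with 2261 and 2061 in DMSO and 1574 and 1478 in AMF (-0.50, SE 0.0624, adjusted p = 2.04e-05). All AMF values were under all DMSO values. XPC, the partner sensor of excision repair, was at 901 and 893 in DMSO and 1079 and 891 in AMF, so that 1 AMF library stood above and the other beside the DMSO pair. Its change was 0.13 (95% interval -0.052 to 0.31, adjusted p = 0.282). POLH, the translesion polymerase eta, was at 1159 and 953 in DMSO and 1154 and 1229 in AMF, with 1 AMF library inside the DMSO range, and its change of 0.18 (95% interval 0.00049 to 0.36, adjusted p = 0.124) passed with the replicate number as a block (adjusted p = 0.0355). Voom called DDB2 without either DMSO library but not without AMF replicate 1 (0.0674) or AMF replicate 2 (0.0807), and it called POLH without DMSO replicate 1. Exons of XPC overlap LSM3 and antisense genes, so that its reads may include some of theirs.

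Genes of redox balance and metabolism were higher where they passed. TP53I3, a quinone oxidoreductase also called PIG3, counted 799 and 748 in DMSO and 1229 and 1202 in AMF (0.65, SE 0.0680, adjusted p = 3.78e-06), with little spread in either group. FDXR, the mitochondrial ferredoxin reductase, counted 4973 and 4719 in DMSO and 6676 and 6126 in AMF (0.40, SE 0.0504, adjusted p = 2.24e-05). ACER2, the Golgi alkaline ceramidase, was a low transcript at 169.9 and 151 in DMSO and 180.1 and 189 in AMF. Its groups did not overlap, but the change of 0.20 (95% interval -0.090 to 0.49, adjusted p = 0.297) did not pass. TIGAR, a fructose bisphosphatase that lowers glycolytic flux, under the older symbol C12orf5 had 78.0 and 89.3 in DMSO and 147 and 186 in AMF (0.98, SE 0.174, adjusted p = 4.98e-04), with both AMF libraries above both DMSO libraries. Annotated exons of TIGAR share 42.6% of their bases with a neighbouring gene model on the same strand, so the split of reads between them is uncertain. TP53I3 stayed called by voom whichever library was left out, FDXR without each library except AMF replicate 1 (adjusted p = 0.0636), and C12orf5 without either DMSO library alone.

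**Figure D2:**
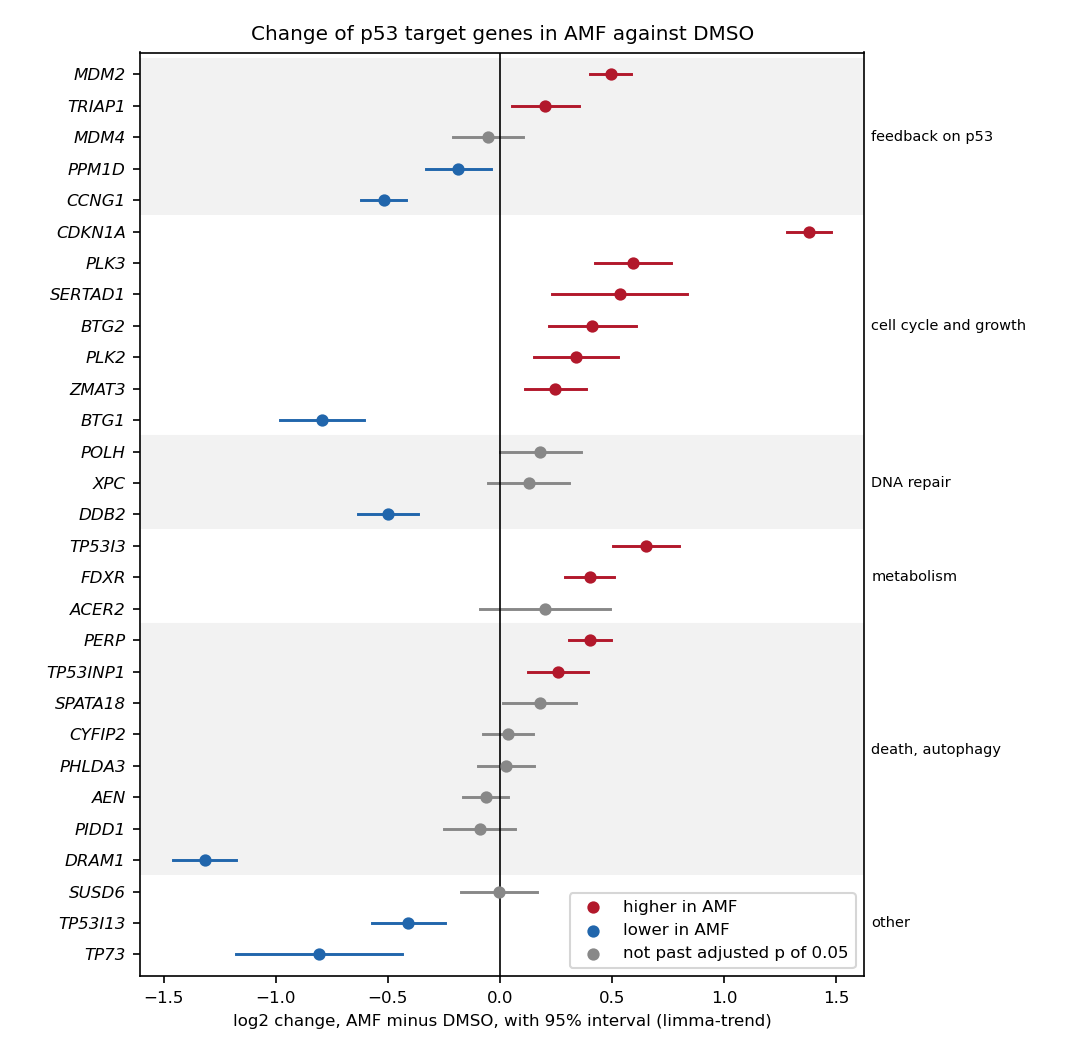
Log2 change of AMF against DMSO for the 29 tested p53 target genes, with 95% intervals from limma-trend, red for genes that rose, blue for those that fell and grey for those not past an adjusted p of 0.05. Of the 7 genes sorted here as cell cycle and growth, 6 lie to the right of 0, while DRAM1 at -1.32 lies farthest to the left.

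Of 8 genes of cell death and autophagy, 2 rose, 1 fell and 5 did not pass, so that the share that rose was near the 25.7% of all genes with a mean of 100 or more. DRAM1, through which p53 promotes autophagy, counted 1954 and 1863 in DMSO and 739 and 793 in AMF. The AMF level was 2.49-fold lower (-1.32, SE 0.0653, adjusted p = 2.08e-09), a change below that of all but 3.06% of the genes tested. PERP, a desmosomal membrane protein, rose, with 4883 and 4888 in DMSO and 6343 and 6582 in AMF (0.40, SE 0.0434, adjusted p = 5.11e-06). TP53INP1, a nuclear protein that also acts in autophagy, rose, with 1420.5 and 1297 in DMSO and 1609 and 1643 in AMF (0.26, SE 0.0629, adjusted p = 0.00501). In both, the AMF libraries were above the DMSO libraries.

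The other 5 genes of this group did not pass. SPATA18, or MIEAP, which acts in mitochondrial quality control, was at 739.7 and 676 in DMSO and 798 and 802 in AMF (0.18, 95% interval 0.017 to 0.34, adjusted p = 0.0907). AEN, a nuclease of apoptotic DNA digestion, was at 4242 and 4058 in DMSO and 4029 and 3917 in AMF (-0.063, 95% interval -0.16 to 0.038, adjusted p = 0.355). In these 2 genes the groups did not overlap, though the gap between them was small. PIDD1, the scaffold that activates caspase-2, was at 2060.2 and 1728 in DMSO and 1824 and 1724 in AMF (-0.089, 95% interval -0.25 to 0.070). PHLDA3, an inhibitor of AKT at the membrane, had a change of 0.029 (95% interval -0.097 to 0.15) and CYFIP2, an actin regulator of the WAVE complex, one of 0.037 (95% interval -0.075 to 0.15). Exons of PIDD1 overlap those of the abundant ribosomal protein gene RPLP2 on the other strand. DRAM1 and PERP stayed called by voom whichever library was left out (adjusted p up to 0.0420 and 0.0442), whereas the call of TP53INP1 ended without AMF replicate 1 (0.146) or AMF replicate 2 (0.169), and PIDD1 was called lower without DMSO replicate 2 (0.00555).

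Of the remaining genes, TP73 and TP53I13 fell. TP73, the p53 relative that binds the same elements, was the least abundant of the 29, at 164 and 134 in DMSO and 90.1 and 79.3 in AMF (-0.81, SE 0.173, adjusted p = 0.00221). Both AMF values lay under both DMSO values. The antisense gene TP73-AS1 overlaps 9.36% of its exon bases. It was more abundant and went from 939 and 884 in DMSO to 740.1 and 698 in AMF, and without strand the reads from the shared stretch cannot be assigned to either. TP53I13, a membrane protein, had 869.7 and 955 in DMSO and 669 and 705 in AMF (-0.41, SE 0.0758, adjusted p = 7.15e-04). Voom called neither gene without AMF replicate 1 (0.123 for TP73 and 0.120 for TP53I13) or AMF replicate 2, and both without either DMSO library. SUSD6, a membrane protein that p53 induces, had the smallest change of the 29, at 572 and 559.5 in DMSO and 564 and 566 in AMF (-0.0026, 95% interval -0.17 to 0.17). TP53I11 was barely seen, with 0 reads in 3 libraries and 2 reads in AMF replicate 2, under the floor of 3 reads, and was not tested.

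The change of each gene that passed was larger than the gap between the replicates of either group. This held for all 19 genes past the test and for 2 of the 10 others, SPATA18 and ACER2. Together they were 72.4% of the 29, beside 53.4% of all genes tested. The test takes its error from the spread between replicates, so genes past it tend to exceed these gaps, which adds no separate support. All 29 had a mean of at least 100, and the share over genes that abundant was not computed. The largest replicate gap, 0.34 on the log2 scale, was that of SERTAD1.

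**Figure D3:**
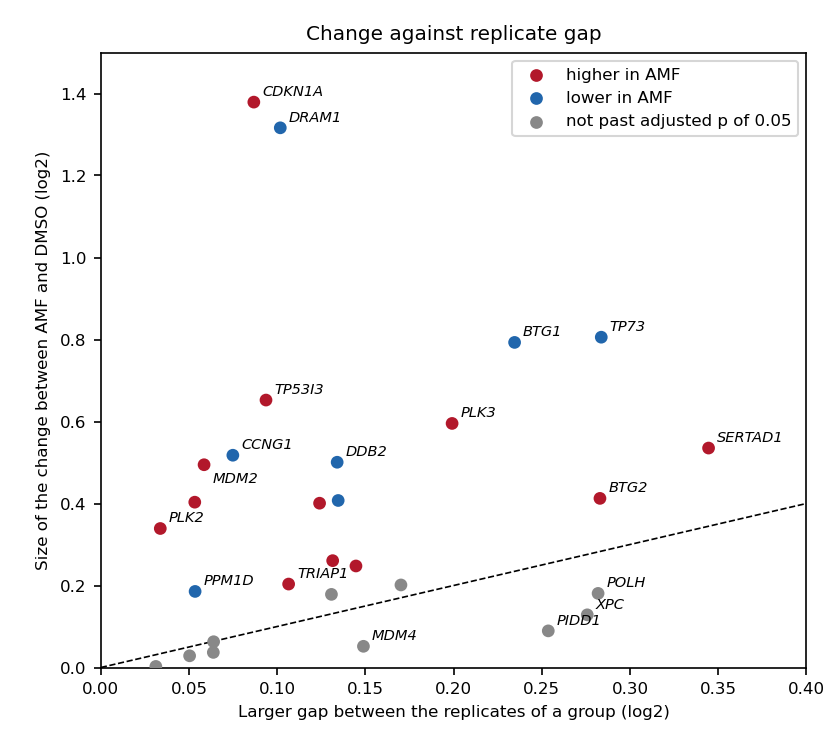
Size of the log2 change between AMF and DMSO against the larger of the log2 gaps between the 2 replicates of a group, for the 29 tested p53 target genes, with a dashed line where both are equal. All 19 genes past the test lie above the line, and POLH, XPC, PIDD1 and MDM4 are labelled below it.

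The number of p53 target genes past the test depended on which library was left out. Without DMSO replicate 1, limma-trend still called 13 of the 19, and 14.8% of all genes tested, and without DMSO replicate 2 it called 9 and 14.4%. Without AMF replicate 1 or 2 no call of limma-trend remained, among the 19 or over all genes tested. Voom called all 19 with every library (32.4% of all genes). It called 17 of them without DMSO replicate 1 (28.4% of all genes) and 17 without DMSO replicate 2 (27.6%). Without AMF replicate 1 it called 6, namely CDKN1A, DRAM1, MDM2, CCNG1, PERP and TP53I3 (5.79%), and without AMF replicate 2 these and FDXR (5.52%). All 19 kept their direction in each of these fits. With all libraries in, the share of genes called was 28.3% with a pseudocount of 0.1, 21.3% without the filter, 48.9% of genes at a mean of 10 or more, 34.2% with the replicate block, 32.0% with library totals and 31.7% on the deposited values, and 17 to 19 of the 19 were called.

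Per kilobase of annotated exon (GENCODE release 29, all exons of a gene), which allows levels of different genes to be set side by side, the order at the top changed. In DMSO the highest level was that of CCNG1 (1683 normalized counts per kb), ahead of FDXR (1346), PERP (1139) and CDKN1A (1025). In AMF CDKN1A came first (2666), ahead of FDXR (1779), PERP (1506) and CCNG1 (1176). TP73 was lowest of the 29 in both groups (22.1 in DMSO and 12.5 in AMF), and TIGAR, counted apart, stood at 20.8 and 41.5. These levels depend on which exons are used, and the annotation behind the deposited values is not given in sources used here.

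Transcripts of proteins that act on p53 moved in both directions. Of 16 tested genes on a list of p53 regulators, 2 rose, 8 fell and 6 did not pass, with a median change of -0.20. The share past the test, 62.5%, was near the 59.3% of all genes with a mean of 100 or more, of which 25.7% rose and 33.6% fell. The deacetylase SIRT1, which acts on p53, fell, with a mean of 951 ± 12.2 in DMSO against 578 ± 65.9 in the AMF libraries (-0.72, SE 0.0842, adjusted p = 1.07e-05). EP300, an acetyltransferase and coactivator of p53, fell by 0.54 (adjusted p = 1.49e-06) and the checkpoint kinase CHEK1 by 0.47 (adjusted p = 1.21e-04). The damage kinase ATR rose by 0.44 (adjusted p = 7.65e-05) and USP7, the deubiquitinase of MDM2 and p53, by 0.19 (adjusted p = 0.00124). Voom without AMF replicate 1 or 2 called SIRT1 and EP300 and not CHEK1, ATR or USP7 (adjusted p for ATR 0.0578 and 0.0522).

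Further p53 targets, from a list of 43 of which 41 were tested, moved in both directions. On that list 16 rose, 7 fell and 18 did not pass, and the median change was 0.059. The share past the test, 56.1%, was close to the same 59.3%, which came from the separate fit of abundant genes. Of the 41, 37 had a mean of at least 100. HES2, a bHLH repressor, had a mean of 72.9 ± 5.79 in DMSO and 277 ± 13.4 in AMF, a rise that passed (1.91, SE 0.148, adjusted p = 1.85e-07). The cytokine LIF rose from 938 ± 36.7 to 2429 ± 78.1 (1.37, SE 0.0604, adjusted p = 6.44e-10), and SFN, or 14-3-3 sigma, which holds CDK1 in the cytoplasm, rose by 0.96 (adjusted p = 6.02e-07). Among the genes past the test, the largest falls were in the BH3-only death gene PMAIP1, or NOXA (-0.60, adjusted p = 0.00427), in FAM210B, a mitochondrial protein (-0.39, adjusted p = 8.41e-06), and in the stress protein SESN2 (-0.36, adjusted p = 7.60e-04). Voom called HES2, LIF and FAM210B whichever library was left out, but not SFN (0.0786 and 0.0792), PMAIP1 (0.265 and 0.216) or SESN2 (0.199 and 0.203) without AMF replicates 1 and 2. It also did not call PMAIP1 without DMSO replicate 2 (adjusted p = 0.0654).

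A list of cyclins, CDKs and RB family, through which p21 acts on the cell cycle, held more genes that fell than genes that rose. It also includes E2F, CDC25 and LIN genes and PCNA, and keeps its short name below. Of 25 tested genes on this list 2 rose, 14 fell and 9 did not pass, with a median change of -0.29. Falls also outnumbered rises over all genes with a mean of 100 or more (33.6% against 25.7%). The share of the list past the test, 64.0%, was near the 59.3% there, and 23 of the 25 had a mean that high. E2F1, the S phase transcription factor, fell by 0.90 (adjusted p = 1.39e-07), the pocket protein RBL1 by 0.72 (adjusted p = 1.13e-06) and the cyclin CCNE2 by 0.67 (adjusted p = 0.0246). CCND3, a D-type cyclin, rose by 0.40 (adjusted p = 0.00315) and CCNE1 by 0.28 (adjusted p = 0.0107). Voom called RBL1 whichever library was left out and E2F1 without each library except AMF replicate 2 (0.0524). Without AMF replicate 1 or 2 it did not call CCND3, CCNE1 or CCNE2 (adjusted p up to 0.194, CCNE2), nor CCNE2 without DMSO replicate 1 (0.156).

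**Figure D4:**
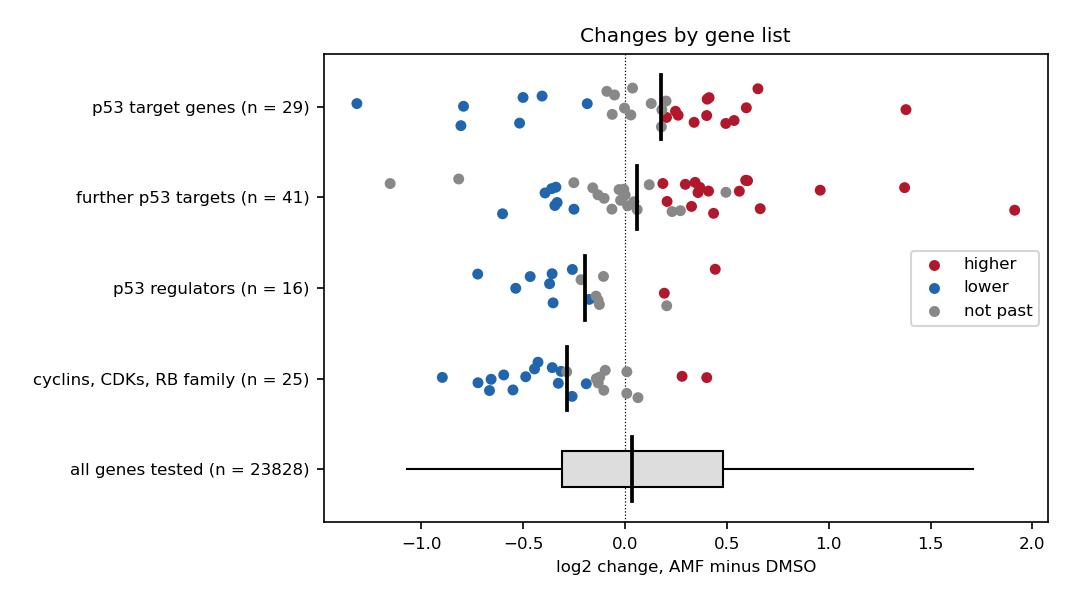
Log2 change of AMF against DMSO for each tested gene of the 4 lists (points, coloured by call, thick bar at the median) and for all 23828 genes tested (box from the 25th to the 75th percentile, line from the 5th to the 95th). Medians were 0.18 for the p53 target genes, 0.059 for the further targets, -0.20 for the p53 regulators, -0.29 for the cyclins, CDKs and RB family and 0.035 for all genes.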

How the data were processed

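Poly(A) RNA of HepG2 cells was sequenced without strand in 4 libraries, per the labels' protocols. The submitters' processing notes name STAR 2.7.0, featureCounts and hg19, while annotation and normalization steps are not given in sources used here. The authors deposited log2-scale values. Their shared lower bound and form match size-factor-scaled counts after variance stabilization, as judged from the values alone. Inverting it gave normalized counts and, divided by the worth of 1 read, whole reads (100% of values within 0.01). No columns of other samples were present.

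The test was limma-trend (limma 3.58.1, R 4.3.3) on log2(normalized count + 1) for genes with a mean of at least 1, with the group as sole term and Benjamini-Hochberg adjustment over all genes tested. The fit was tested on simulated data. Alternatives were a pseudocount of 0.1, no filter, means of at least 10 or 100 (the latter added after seeing the data), omission of each library, a replicate block, voom on the reads, library totals and the deposited values. Members and lists were chosen with earlier results of these data known. Every member is named, and from each other list up to 3 genes with the largest rise and 3 with the largest fall among those called at a mean of 10 or more. A further gene that the rule names is not reported here. Through older symbols, C12orf5 was matched to TIGAR and RFWD2 to COP1. Promoters came from RefSeq (GRCh38.p14), exons from GENCODE release 29, and coordinates of the hg19 files were not used. Reads carry no molecular identifiers, so the floor of 3 reads covers counting error only.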

Additional observations from a re-analysis of the deposited data

How the results depend on the processing

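Of the 19 p53 target genes past the test, all kept their direction and none changed its fold by over 1.5 times in the 16 alternatives, and 17 to 19 stayed past it in those that used all 4 libraries. With 1 library left out, which assumes that the lone library of a group varies like the other group, limma-trend called 0 to 8 of the 29 higher and 0 to 5 lower, and voom 4 to 12 higher and 2 to 7 lower. For the further p53 targets these ranges were 0 to 11 higher and 0 to 4 lower with limma-trend and 3 to 15 and 1 to 7 with voom. For p53 regulators they were 0 to 2 higher and 0 to 4 lower, and 0 to 2 and 2 to 8 with voom. For the cyclins, CDKs and RB family they were 0 to 1 higher and 0 to 12 lower, and 0 to 2 and 2 to 15 with voom. Over all genes they were 0 to 1753 higher and 0 to 1780 lower, and 636 to 3043 and 679 to 3733 with voom. The lowest counts of limma-trend arose without AMF replicate 1 or 2, when its prior degrees of freedom fell from 11.9 to 0.995 and 1.0.

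Direction changed in 4 genes that did not pass the test, with these values by limma-trend and voom, respectively: MDM4 without DMSO replicate 2 (0.023 and 0.024), PIDD1 without DMSO replicate 1 (0.037 and 0.039), SUSD6 without DMSO replicate 1 (0.013 and 0.013) and XPC without AMF replicate 1 (-0.0094 and -0.0095). Over the fits with 1 library left out their changes ranged from -0.22 to 0.039 (PIDD1), -0.018 to 0.013 (SUSD6), -0.13 to 0.024 (MDM4) and -0.0095 to 0.27 (XPC). With library totals as scaling the change of SUSD6 was 0.019. Without AMF replicate 1, voom called 667 genes higher and 712 lower. The replicate number as a block gave 13 of the 29 higher and 7 lower, POLH being added, and 4049 and 4108 over all genes. The deviations of equally numbered libraries had a correlation of 0.0140 across 15845 genes. So low a value over all genes cannot exclude a culture or day shared by equally numbered libraries, and the titles give only a replicate number.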
